A study of Mus musculus with 6 samples.

Results

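CXCL9, CXCL10 and CXCL11 are the interferon-induced ligands of CXCR3, a receptor carried by activated T cells and natural killer cells. Their genes, Cxcl9, Cxcl10 and Cxcl11, were taken by name from the tables of 6 RNA-seq libraries, and all 3 were found among the 24346 genes listed. In the sorted colonic stroma of these mice Cxcl10 was an abundant transcript in every library, Cxcl9 was a low one and Cxcl11 was close to absent. Cxcl9 and Cxcl10 had higher values in each of the 3 Pdgfra-cre libraries than in any of the 3 floxed libraries, but neither difference passed the test across all genes.

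The libraries came from 3 mice a genotype of 12 weeks of age given 1% DSS (dextran sulfate sodium), which damages the lining of the colon and is used to induce colitis. The Pdgfra-cre group (Pdgfra cre; Il10ra flox/flox, libraries 13, 23 and 25) carried floxed alleles of Il10ra, which encodes the receptor chain that binds interleukin-10, and a cre recombinase driven by Pdgfra, a gene of fibroblasts. The floxed group (Il10ra flox/flox, libraries 8, 9 and 43) carried the same alleles without cre. Stromal cells were sorted from whole colons as live cells with Podoplanin and without CD45, CD31 or EpCAM, so the sort did not select cells by cre activity, and DSS was common to both groups. The title of the study names the interleukin-10 receptor in fibroblasts and type I interferon signaling as its subject.

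Interferon gamma, acting through the kinases JAK1 and JAK2, is the classical inducer of CXCL9. CXCL10 responds to interferon gamma, to type I interferons and to NF-kB, the transcription factor activated by TNF and interleukin-1, and CXCL11 responds to both kinds of interferon. In inflamed gut, fibroblasts and myeloid cells can release these chemokines, which draw CXCR3-bearing T cells into tissue.

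The targeted gene was seen in 1 library only. Il10ra was listed at 0 in Pdgfra-cre libraries 13, 23 and 25, and at 0, 0 and 0.418 FPKM (fragments scaled to transcript length and library size) in floxed libraries 8, 9 and 43, so its loss could not be checked from these values. The fibroblast markers Pdgfra and Pdpn were expressed in all 6 libraries. Pdgfra had 155, 120 and 174 FPKM in Pdgfra-cre libraries 13, 23 and 25, against 178, 186 and 199.9 FPKM in floxed libraries 8, 9 and 43, lower in each Pdgfra-cre library and lowest in library 23 (limma adjusted p = 0.411). It was the 1 gene of 11 tested fibroblast markers with a difference below 0. The other 10 lay above 0, and 4 of them (Cd34, Dpt, Vim and Dcn) were without overlap between groups. Their means in Pdgfra-cre were 1.16 to 1.70 times those in floxed (limma adjusted p from 0.107 to 0.613). Over all genes tested, 8.07% were without overlap and higher in Pdgfra-cre, and 8.29% without overlap and lower. In bulk RNA a larger share of cells that make a chemokine and more chemokine RNA per cell cannot be told apart. Library 23 had the lowest mean correlation with the others, at 0.950 against 0.960 to 0.970 for the rest. Values of the members are therefore given for each library, and some results also without library 23. Several other genes are given only as mean and SD, which include library 23.

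Cxcl10 had 434, 1153 and 226 FPKM in Pdgfra-cre libraries 13, 23 and 25, against 190, 207 and 171 FPKM in floxed libraries 8, 9 and 43. All 3 Pdgfra-cre values lay above all 3 floxed values, with library 23 far above the rest and library 25 just above floxed library 9. The Pdgfra-cre libraries differed among themselves by 5.11-fold, the floxed ones by 1.21-fold. The means were 604 ± 487 FPKM in Pdgfra-cre and 190 ± 18.1 FPKM in floxed (SD, n = 3 each). On the log2(FPKM + 1) scale the difference was 1.35 ± 0.46 (SE), with a 95% interval of 0.31 to 2.39, and it did not pass (limma adjusted p = 0.309, unadjusted p = 0.0162). The SE and interval use a common variance for both groups, which limma draws towards that of other genes. The SD on this scale was 1.18 in Pdgfra-cre and 0.137 in floxed, so the interval does not describe the spread of either group.

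Cxcl9 had 6.71, 32.0 and 2.84 FPKM in Pdgfra-cre libraries 13, 23 and 25, against 1.36, 1.79 and 1.25 FPKM in floxed libraries 8, 9 and 43. The groups did not overlap, and the order of the 6 libraries was the same as for Cxcl10. The Pdgfra-cre libraries ranged over 11.3-fold, the floxed ones over 1.43-fold. The means were 13.8 ± 15.8 FPKM in Pdgfra-cre and 1.47 ± 0.288 FPKM in floxed (SD, n = 3 each). The difference was 2.01 ± 0.63 (SE) on the log2(FPKM + 1) scale, with a 95% interval of 0.59 to 3.44, and it did not pass either (limma adjusted p = 0.273, unadjusted p = 0.0108). This interval too uses a common variance, although the SD on this scale was 1.58 in Pdgfra-cre and 0.164 in floxed. An addition of 1 to values this low understates the difference, and with an addition of 0.1 it was 2.48.

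Cxcl11 was listed at 0, 0 and 0.0729 FPKM in Pdgfra-cre libraries 13, 23 and 25, and at 0, 0 and 0.0764 FPKM in floxed libraries 8, 9 and 43. Each group thus had 1 library above 0, and the groups overlapped fully (exact permutation p = 1, two-sided). The gene stayed below the minimum of 1 FPKM in 3 libraries that the genewise test required. RefSeq describes it as a transcribed pseudogene on this reference genome and GENCODE as a polymorphic pseudogene. The C57BL/6 allele is known to carry a frameshift that removes the protein, and the strain of these mice is not given in the sources used here.

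The number of reads behind these values can be estimated from the lowest values above 0. Their most common level, scaled to transcript length, was taken as what 1 read is worth, 0.111 to 0.131 FPKM for a transcript of 1 kilobase. On that estimate Cxcl10 rested on about 2215 to 11157 reads in Pdgfra-cre libraries and 1609 to 1796 in floxed libraries. Cxcl9 rested on about 74 to 817 reads in Pdgfra-cre and 31 to 40 in floxed. Each Cxcl11 value above 0 corresponded to 1 read, and 3 reads of this gene, taken as the floor for a level that can be told from 0, would give 0.212 to 0.248 FPKM. The exact Poisson intervals of library 25 and floxed library 9 overlapped for Cxcl9 (2.24 to 3.58 against 1.29 to 2.47 FPKM) and for Cxcl10 (216 to 235 against 198 to 218 FPKM). For both genes the intervals of libraries 13 and 23 lay above those of all floxed libraries. These intervals cover counting error only.

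**Figure D1:**
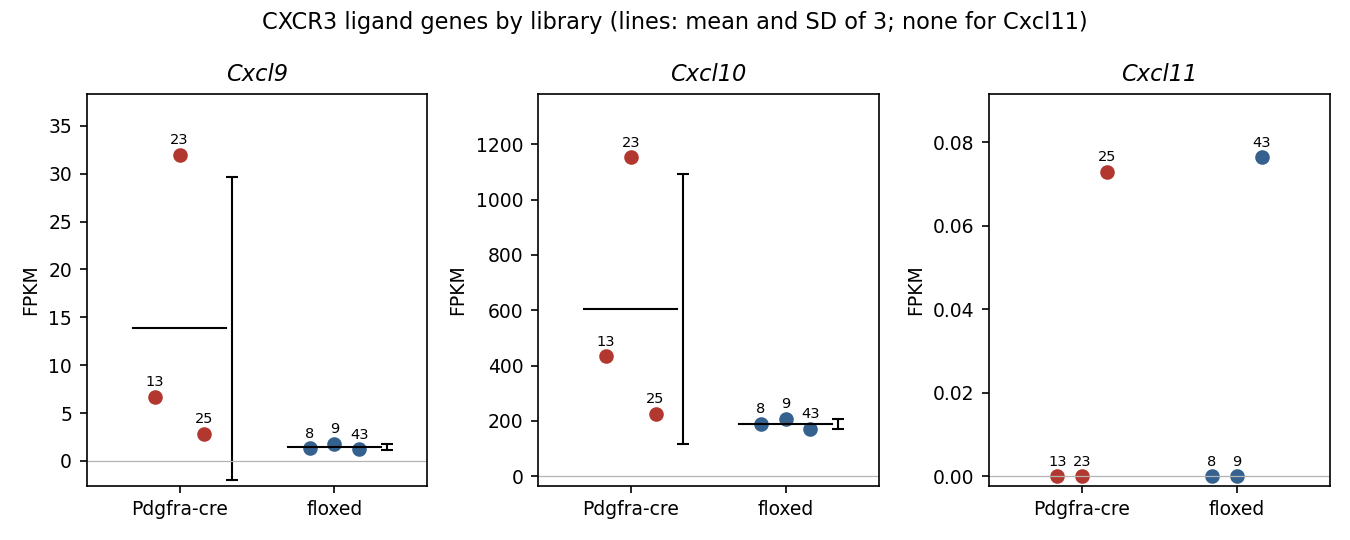
FPKM (vertical axes, separate linear scales) of Cxcl9, Cxcl10 and Cxcl11 in each of 6 libraries, Pdgfra-cre on the left and floxed on the right of each panel, with library numbers at the points and lines for the mean and SD of 3 (none for Cxcl11). Library 23 is highest for Cxcl9 (32.0 FPKM) and Cxcl10 (1153 FPKM), and Cxcl11 is above 0 only in libraries 25 and 43.

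An exact permutation test of either gene on FPKM gave p = 0.1, two-sided, which is the smallest that 3 libraries against 3 can give. Of 11429 genes tested, limma called 0 at the threshold of 0.05 after adjustment (0%). Before adjustment 1253 genes were under 0.05 (11%), 625 of them with higher values in Pdgfra-cre (5.47%). Both tested members were among those 625 and among the 922 genes (8.07%) whose values were higher in all 3 Pdgfra-cre libraries. By size of the log2 difference Cxcl9 ranked 15 and Cxcl10 ranked 69 of 11429 from the top. By unadjusted p they ranked 453 and 597, because the Pdgfra-cre libraries spread so widely. Without library 23 the log2 differences were 1.15 for Cxcl9 (limma adjusted p = 0.328) and 0.72 for Cxcl10 (adjusted p = 0.380). Without library 25 they were 2.70 (adjusted p = 0.0872) and 1.90 (adjusted p = 0.0729).

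**Figure D2:**
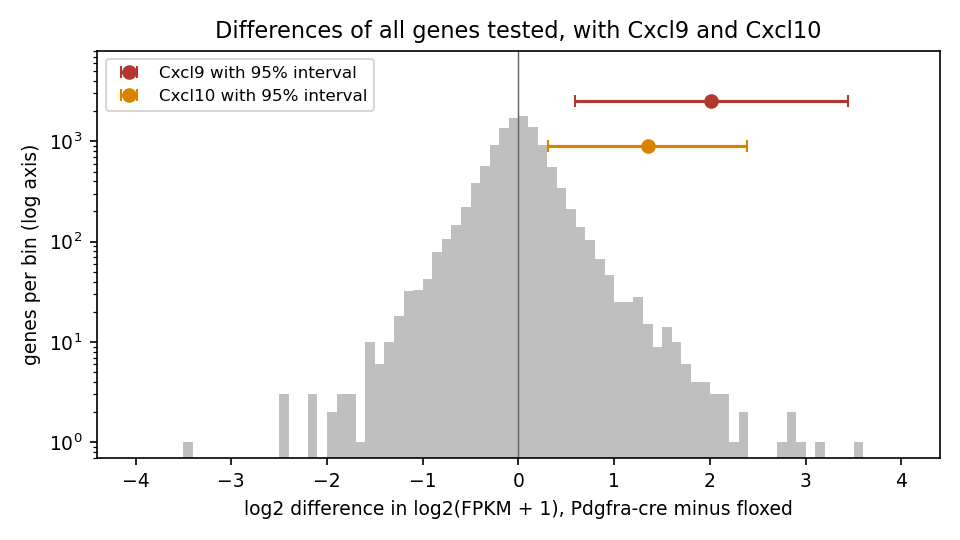
Histogram of the log2 difference (horizontal axis, Pdgfra-cre minus floxed) of the 11429 genes tested, with genes per bin on a log axis, and the differences of Cxcl9 and Cxcl10 with their 95% intervals drawn above at arbitrary heights. Both lie in the upper tail, at 2.01 and 1.35, with intervals that reach down to 0.59 and 0.31.

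Set over the floxed mean, Cxcl9 was 4.57-fold in library 13, 21.8-fold in library 23 and 1.93-fold in library 25, and Cxcl10 was 2.29-fold, 6.08-fold and 1.19-fold in the same libraries. Cxcl9 thus had the larger factor in 3 of 3 Pdgfra-cre libraries. As a share of Cxcl10, Cxcl9 was 1.54%, 2.77% and 1.26% in Pdgfra-cre libraries 13, 23 and 25, against 0.713%, 0.865% and 0.730% in floxed libraries 8, 9 and 43. The groups did not overlap, and the means were 1.86% ± 0.805 in Pdgfra-cre and 0.769% ± 0.083 in floxed (SD, n = 3 each; exact permutation p = 0.1, two-sided, the smallest possible). The log2 ratio with 1 added to each value differed by 0.66 between groups (exact permutation p = 0.1, and adjusted p = 0.1 over 3 ratios). With 5 added, more than Cxcl9 itself measured in floxed libraries, the sign turned, to -0.12. Without library 23, and with 1 added, the difference was 0.42. The ratios with Cxcl11 rest on a gene at 0 or 1 read and say nothing beyond the other member's own level.

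Across the 6 libraries Cxcl9 and Cxcl10 ran closely together (Pearson r = 0.996 on the log2 scale, exact permutation p = 0.00139, adjusted p = 0.00417 over 3 pairs). Spearman's rho was 1 (exact permutation p = 0.00278, adjusted p = 0.00833), and each of these p values is the smallest that 6 libraries allow. Without libraries 13 and 23, the farthest from the median of Cxcl9, r was 0.929 over 4 libraries. The 6 points hold both genotypes, and 3 libraries a genotype are too few for a correlation within each. Correlations with Cxcl11, at 0 in 4 libraries, were -0.458 for Cxcl10 and -0.392 for Cxcl9 (exact permutation p = 0.4 and 0.567) and are not read further. The full order of the libraries in Cxcl10 was found in 73 of 11429 tested genes (0.639%), a count that includes Cxcl10 itself and Cxcl9.

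**Figure D3:**
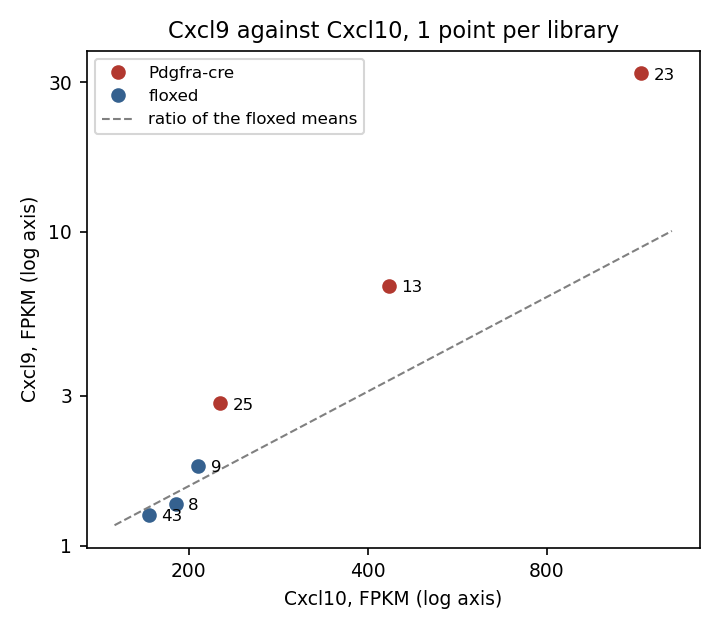
Cxcl9 FPKM (vertical log axis) against Cxcl10 FPKM (horizontal log axis), 1 point per library with its number, and a dashed line at the ratio of the floxed means. The 3 Pdgfra-cre libraries lie above the line, at Cxcl9 shares of 1.26% to 2.77% of Cxcl10, and the floxed libraries lie close to it, at 0.713% to 0.865%.

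The members lie side by side on chromosome 5 of the mm10 genome, all on the minus strand. In RefSeq's annotation of GRCm38.p6, Cxcl9 runs from 92321331 to 92328079, Cxcl10 from 92346638 to 92348889 and Cxcl11 from 92359544 to 92363296, 41966 bases in all. Cxcl10 and Cxcl11 lie within the span of Art3 (92331799 to 92414628), a gene of the ADP-ribosyltransferase family on the plus strand. Art3 had 31.4, 50.03 and 21.8 FPKM in Pdgfra-cre libraries 13, 23 and 25, against 15.9, 14.3 and 15.6 FPKM in floxed libraries 8, 9 and 43. Its groups did not overlap either, with library 23 highest as for both chemokines, and its log2 difference of 1.04 ± 0.26 (SE) did not pass (limma adjusted p = 0.195). Exons of Art3 and Cxcl10 share 133 bases in GENCODE M21, and the libraries do not keep the strand, so reads from those bases cannot be assigned to either gene. All annotated Cxcl10 exons together cover 2252 bases, against 1094 in the transcript used to estimate reads. Whether the 133 bases lie in that transcript was not examined. How much of the Art3 value reads from these bases make up was not tested.

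Neighbours farther out had overlapping groups. Naaa, an amidase gene, and Sdad1, which acts in ribosome assembly, lie beyond Cxcl9. Naaa had 25.2, 33.3 and 34.6 FPKM in Pdgfra-cre libraries 13, 23 and 25, against 25.4, 22.9 and 26.9 FPKM in floxed libraries 8, 9 and 43, and Sdad1 ranged from 1.97 to 4.13 FPKM over all 6. Nup54, a nuclear pore gene, and Scarb2, a lysosomal receptor gene, lie beyond Cxcl11, with 12.0 to 17.1 and 87.3 to 121 FPKM over the 6 libraries. Their log2 differences lay between -0.02 for Sdad1 and 0.29 for Naaa (limma adjusted p from 0.567 to 0.992). Ppef2 reached at most 0.571 FPKM and Mir6415 was listed at 0 throughout.

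No promoter entry was matched to Cxcl11, so only the promoters of Cxcl9 and Cxcl10 are shown. They are the 250 bases before each gene's start, 5′ to 3′ on the gene's strand, at chr5:92328080-92328329 for Cxcl9 and chr5:92348890-92349139 for Cxcl10 (minus strand, RefSeq sequence of GRCm38.p6). Capitals mark matches, on either strand, to the interferon-stimulated response element (GAAA, any 2 bases, GAAA), the gamma-activated sequence (TTCNNNGAA), the NF-kB consensus, the CCAAT box (CCAAT) or a TATA-like box (ATAAATA).
Cxcl9: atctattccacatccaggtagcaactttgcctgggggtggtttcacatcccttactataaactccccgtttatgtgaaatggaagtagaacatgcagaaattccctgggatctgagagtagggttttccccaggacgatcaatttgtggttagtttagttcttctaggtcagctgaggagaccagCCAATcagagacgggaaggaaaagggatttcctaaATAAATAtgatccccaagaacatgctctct
Cxcl10: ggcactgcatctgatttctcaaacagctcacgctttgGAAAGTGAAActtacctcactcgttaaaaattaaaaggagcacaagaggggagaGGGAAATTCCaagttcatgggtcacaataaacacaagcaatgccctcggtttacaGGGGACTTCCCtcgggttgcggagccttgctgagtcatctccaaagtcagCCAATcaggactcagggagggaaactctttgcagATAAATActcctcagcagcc

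The Cxcl10 window holds an interferon-stimulated response element, GAAAGTGAAA, which begins 213 bases before the start. It also holds NF-kB matches that begin 159 bases (GGGAAATTCC) and 104 bases before the start, the second of them a pair of overlapping matches. The Cxcl9 window has no match to either motif, and neither window has one to the gamma-activated sequence, which says only that those letters are not in these bases. Each has a CCAAT box, 65 bases before the start in Cxcl9 and 54 in Cxcl10, and a TATA-like box, at 30 and 20 bases. The longest run the windows share is CAGCCAATCAG, 11 bases around the CCAAT box. Of 32851 promoter windows of this length, 2.98% hold the response element, 7.02% the gamma-activated sequence, 7.25% the NF-kB consensus, 33.8% a CCAAT box, 5.17% the TATA-like box and 0.755% the shared run. A match is a description of letters and not a measured site.

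Among 36 chemokine genes, the 3 members and 33 others, Cxcl10 was among the more abundant in this stroma. By mean FPKM, which is scaled to transcript length, it ranked 6 in Pdgfra-cre and 7 in floxed, and its rank lay between 6 and 8 in each of the 6 libraries. In Pdgfra-cre it stood between Cxcl12, a homeostatic chemokine of fibroblasts (865 to 1391 FPKM), and Cxcl13, which attracts B cells (193 to 426 FPKM), and its values overlapped with both. In floxed libraries it stood below Cxcl13 (454 to 906 FPKM), with no overlap, and above the monocyte attractant Ccl8 (92.3 to 220 FPKM), with overlap. Cxcl10 made up 2.99% to 7.90% of the summed FPKM of these 36 genes in Pdgfra-cre libraries and 2.33% to 2.93% in floxed libraries.

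Cxcl9 ranked 14 by mean FPKM in Pdgfra-cre and 18 in floxed. In Pdgfra-cre it lay between Cxcl14, a chemokine of epithelium and stroma (16.8 to 38.6 FPKM), and Cx3cl1, the ligand of CX3CR1 (5.98 to 16.4 FPKM), and overlapped with each. In floxed libraries it lay among genes of low level, between Ccl5 (0 to 3.50 FPKM) and Ccl9 (0.226 to 2.36 FPKM). Its own floxed values, at about 31 to 40 reads, were above the floor of 3 reads. Of the other 33 chemokines 23 were tested and 0 passed. Their log2 differences were above 0 in 18 and below in 5, with a median of 0.46, against a median of 0.0012 over all genes tested. Groups did not overlap in 3 with higher values in Pdgfra-cre (against 8.07% of all genes) and in 1 with lower values (against 8.29%). The 3 were the neutrophil attractants Cxcl1, first of the 36 in every library, and Cxcl3, and Ccl25, which attracts T cells to the small intestine, and the 1 lower was Cxcl13. Cxcl13 had 426, 193 and 343 FPKM in Pdgfra-cre libraries 13, 23 and 25, against 720, 906 and 454 FPKM in floxed libraries 8, 9 and 43. Library 23, where Cxcl9 and Cxcl10 were highest, had the least Cxcl13. The Cxcl13 difference of -1.13 ± 0.31 (SE) did not pass (limma adjusted p = 0.231).

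**Figure D4:**
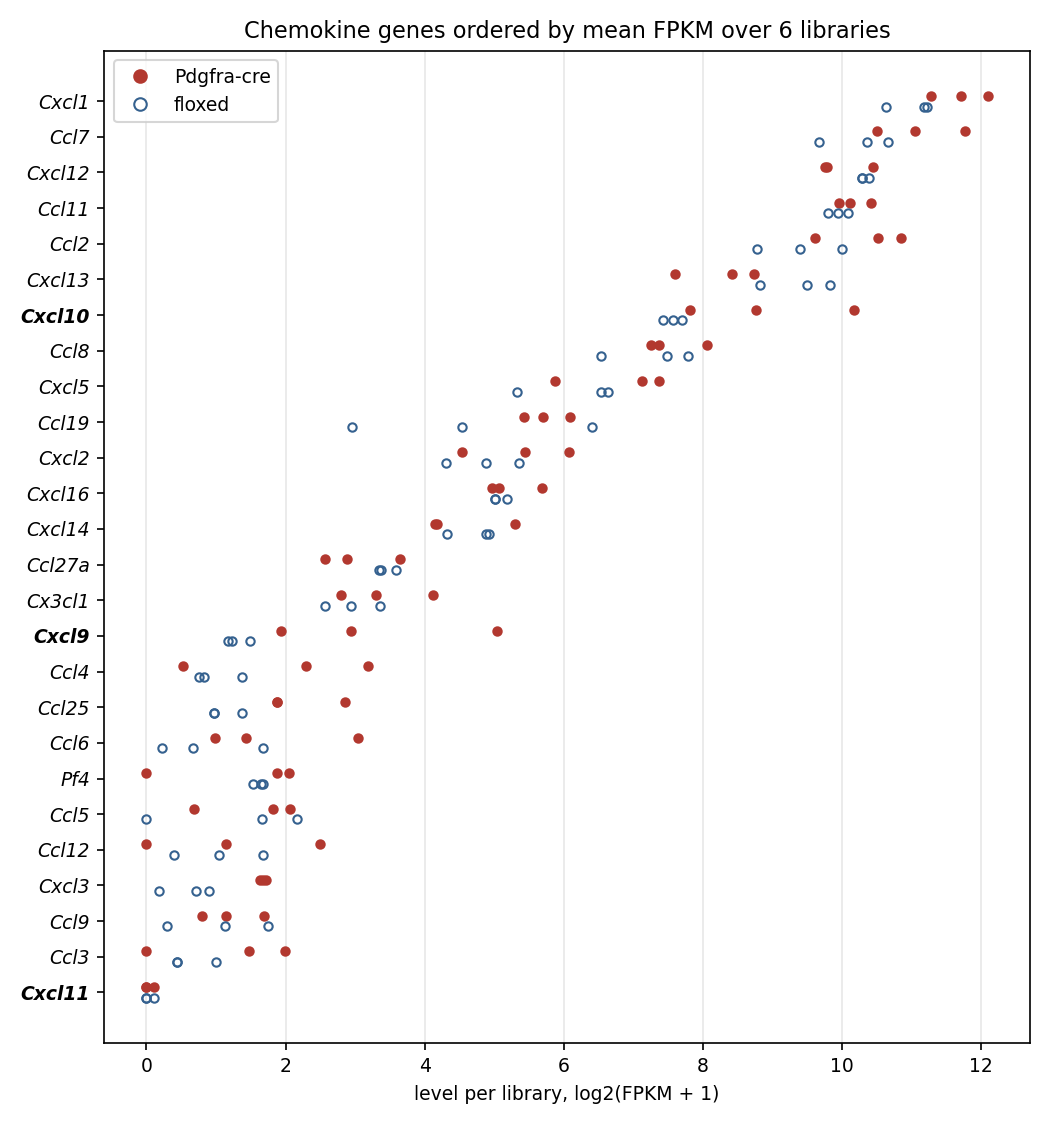
Levels in log2(FPKM + 1) (horizontal axis) of chemokine genes that reached 1 FPKM in any library, plus Cxcl11, ordered by their mean over 6 libraries, with 3 Pdgfra-cre points (filled) above 3 floxed points (open) for each gene. Cxcl10 sits among the abundant chemokines, next to Cxcl13 and Ccl8, Cxcl9 in the lower part with widely spread Pdgfra-cre points, and Cxcl11 at the bottom.

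RNA of the receptor was at or near 0. Cxcr3 was listed at 0 in 5 libraries and at 0.0744 FPKM, about 1 read, in floxed library 8. Pf4, which encodes CXCL4, a platelet chemokine that also binds CXCR3, had 0, 2.68 and 3.14 FPKM in Pdgfra-cre libraries 13, 23 and 25, against 1.90, 2.14 and 2.19 FPKM in floxed libraries 8, 9 and 43. Its groups overlapped. Dpp4, the peptidase that trims and inactivates CXCR3 ligands, had 23.9, 7.56 and 14.97 FPKM in Pdgfra-cre libraries 13, 23 and 25, against 15.1, 13.7 and 18.4 FPKM in floxed libraries 8, 9 and 43. Its lowest value was in library 23, where Cxcl10 was highest, and its groups overlapped (limma adjusted p = 0.920).

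Atypical receptors, which take up chemokines without signalling through G proteins, were expressed. Ackr3, which binds CXCL11 and CXCL12, had 328, 287 and 271 FPKM in Pdgfra-cre libraries 13, 23 and 25, against 255, 263 and 261 FPKM in floxed libraries 8, 9 and 43. Ackr1 had means of 8.62 ± 0.891 FPKM in Pdgfra-cre and 5.70 ± 0.620 FPKM in floxed, and Ackr2, a scavenger of CC chemokines, had 7.13 ± 2.95 and 3.47 ± 0.706 FPKM in the same order of groups (SD, n = 3 each). Groups did not overlap in any of these 3, which were all higher in Pdgfra-cre, against 8.07% of all genes tested, and none passed (limma adjusted p of 0.607, 0.331 and 0.315). Ackr4, a scavenger of CCL19, CCL21 and CCL25, had 243, 129 and 363 FPKM in Pdgfra-cre libraries 13, 23 and 25, against 159, 179 and 213 FPKM in floxed libraries 8, 9 and 43. Its groups overlapped, with library 23 lowest of all 6 (limma adjusted p = 0.801). Over the 8 tested genes of this list 4 lay above 0 and 4 below, with a median of 0.020.

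Genes of interferon gamma signalling were mixed. Ifng itself had no value above 0, and the sort had removed CD45-positive cells, which include those known to make it. The receptor genes were expressed, Ifngr1 with 205, 204 and 223 FPKM in Pdgfra-cre libraries 13, 23 and 25, against 229, 229 and 280 FPKM in floxed libraries 8, 9 and 43, so that it was lower in each Pdgfra-cre library. Ifngr2 had 27.2 ± 3.29 FPKM in Pdgfra-cre and 26.3 ± 5.97 FPKM in floxed (SD, n = 3 each), with overlap.

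Irf1, an interferon-induced factor that acts on interferon response elements, had 454, 722 and 344 FPKM in Pdgfra-cre libraries 13, 23 and 25, against 318, 253 and 342 FPKM in floxed libraries 8, 9 and 43. Library 25 was barely above floxed library 43, and the difference of 0.67 ± 0.24 (SE) did not pass (limma adjusted p = 0.332). The kinase gene Jak2 averaged 14.1 ± 4.91 FPKM in Pdgfra-cre and 6.66 ± 1.13 FPKM in floxed, and the feedback inhibitor gene Socs1 34.2 ± 20.3 FPKM in Pdgfra-cre and 16.1 ± 1.83 FPKM in floxed (SD, n = 3 each), both without overlap (limma adjusted p = 0.210 and 0.339). Of 13 tested members of this list 0 passed, 8 lay above 0 and 5 below, and the median was 0.064. Groups did not overlap in 4 with higher values, against 8.07% of all genes, and in 2 with lower values, against 8.29%, which were Ifngr1 and the phosphatase gene Ptpn2.

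Genes of type I interferon signalling were mixed too. The ligand genes Ifnb1 and Ifna2 had no value above 0, and Ifna4 had 0.477 FPKM in library 13 and 0 elsewhere. Irf7, the factor that amplifies the type I response, averaged 51.9 ± 25.6 FPKM in Pdgfra-cre and 21.2 ± 5.50 FPKM in floxed, and Irf9, the DNA-binding subunit of its signalling complex, 41.3 ± 10.95 FPKM in Pdgfra-cre and 26.9 ± 3.66 FPKM in floxed (SD, n = 3 each), both without overlap (limma adjusted p = 0.222 and 0.298). Over 12 tested members 8 lay above 0, with a median of 0.26, and groups did not overlap in 3 with higher values and 1 with lower values (8.07% and 8.29% of all genes). In the NF-kB and TNF list 13 of 18 tested members lay above 0, with a median of 0.14. Nfkbia, the inhibitor gene that NF-kB induces, had 977, 1205 and 855 FPKM in Pdgfra-cre libraries 13, 23 and 25, against 980, 881 and 767 FPKM in floxed libraries 8, 9 and 43, so its groups overlapped (limma adjusted p = 0.703). Groups did not overlap in 2 of the 18 members, the NF-kB subunit genes Rel and Rela, both higher, a share near the 8.07% of all genes. Rel had 5.61 ± 1.91 FPKM in Pdgfra-cre and 2.98 ± 0.150 FPKM in floxed (SD, n = 3 each; limma adjusted p = 0.327). In the interleukin-10 axis 0 of 6 tested members were without overlap, against 16.4% of all genes in either direction. Stat3, the main transcription factor of interleukin-10 signalling, had 128 ± 15.4 FPKM in Pdgfra-cre and 125 ± 19.6 FPKM in floxed (SD, n = 3 each; limma adjusted p = 0.949).

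**Figure D5:**
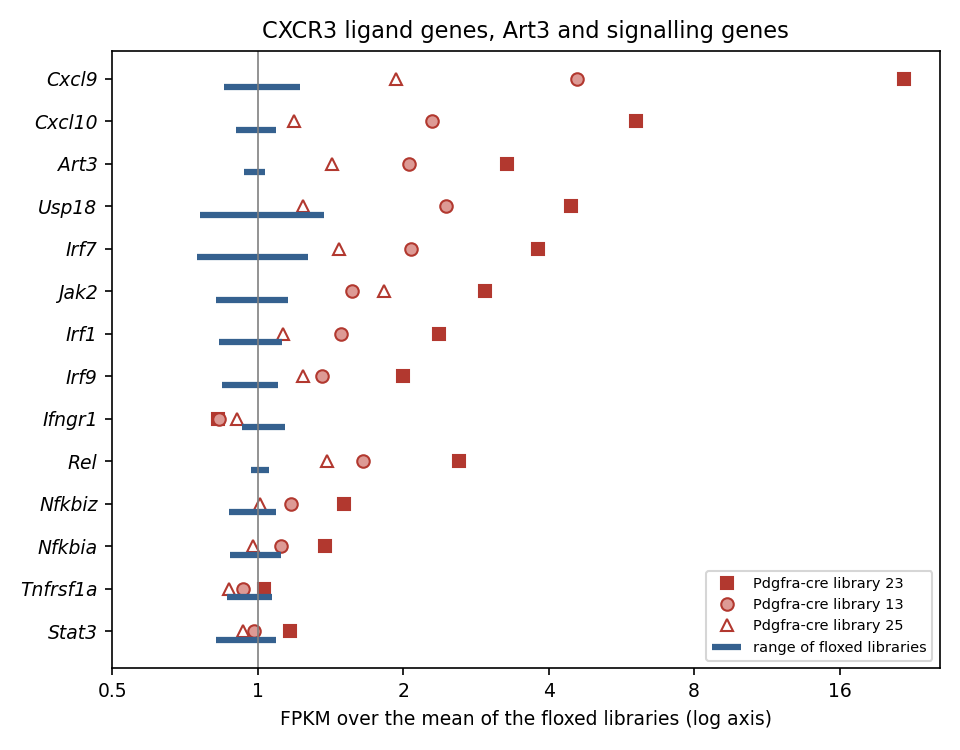
FPKM of 3 Pdgfra-cre libraries (red symbols) divided by the mean of the floxed libraries (horizontal log axis) for Cxcl9, Cxcl10, their neighbour Art3 and signalling genes, with a blue bar for the range of the floxed libraries below each row. Library 23 has the highest factor for both chemokines (21.8 and 6.08), and Nfkbia, Tnfrsf1a and Stat3 stay close to 1.

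The order seen in both chemokines, with library 23 above 13, 13 above 25 and 25 above every floxed library, was counted across lists after it had been seen. It held for 17 of 22 tested genes of the interferon gamma-induced list (77.3%), 10 of 21 of the type I interferon-stimulated list (47.6%), 3 of 13 of the interferon gamma signalling list, 3 of 12 of the type I signalling list, 2 of 18 of the NF-kB and TNF list, 3 of 23 other chemokines, 0 of 8 of the CXCR3 list and 0 of 6 of the interleukin-10 list. Among cell type markers it held for 2 of 4 neutrophil genes (50%), 1 of 7 of the macrophage, monocyte and dendritic cell list (14.3%), 1 of 11 fibroblast genes and 0 of 5 epithelial genes, so the order was not confined to interferon genes. Over all genes tested it held for 301 of 11429 (2.63%), a count that includes Cxcl9 and Cxcl10 themselves. The lists were chosen with earlier results of these data known, so these shares are a description and not a separate test. The names of the lists do not tell the kinds of interferon apart, and this was not tested. The interferon gamma-induced list had a median log2 difference of 1.48, or 0.73 without library 23, and the type I list 0.89, or 0.60 without it. None of their members passed over all genes.

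The genes whose values ran most like those of the chemokines were found by the root mean square difference between log2 levels, each centred on its own mean over the 6 libraries, among 11299 tested genes with a mean of at least 1 FPKM. For Cxcl9 the closest 5 were Gm12250, Igtp, Tgtp2, Iigp1 and Apol6, at 0.11, 0.21, 0.23, 0.25 and 0.25 log2 units. Gm12250 had 16.02, 74.8 and 7.67 FPKM in Pdgfra-cre libraries 13, 23 and 25, against 4.36, 4.16 and 4.14 FPKM in floxed libraries 8, 9 and 43. For Cxcl10 the closest were Gbp2, Gbp3, 2210039B01Rik, Gbp9 and 9930111J21Rik1, at 0.11 to 0.18 log2 units. Gbp2 had 149, 384 and 73.5 FPKM in Pdgfra-cre libraries 13, 23 and 25, against 55.7, 58.8 and 47.8 FPKM in floxed libraries 8, 9 and 43. Cxcl10 itself was 19 in the order from Cxcl9, at 0.41 log2 units, and Cxcl9 was 64 in the order from Cxcl10. The 2 lists of 5 shared no gene. This measure depends on how far a gene varies as well as on how its libraries are ordered. The root mean square of the centred levels was 1.36 for Cxcl9 and 0.96 for Cxcl10, so separate lists do not mean separate patterns. Tgtp2 and the Gbp genes have close paralogs, between which counting can split reads, so their values are uncertain.

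Markers of other cells were checked beside these results, since myeloid cells can also make CXCL9 and CXCL10. For T and natural killer cells, the cells that carry CXCR3, 17 genes were in the tables and 0 were high enough to be tested. Their summed level was 1.49 to 2.14 FPKM in Pdgfra-cre and 1.11 to 2.41 FPKM in floxed, and Cd3e was at 0 in 5 libraries. For macrophages, monocytes and dendritic cells 7 of 19 genes were tested, with sums of 33.1 to 68.8 FPKM in Pdgfra-cre and 32.9 to 44.0 FPKM in floxed. Ptprc, the CD45 gene, had 0.0635, 1.04 and 0 FPKM in Pdgfra-cre libraries 13, 23 and 25, against 0.498, 0.352 and 0.170 FPKM in floxed libraries 8, 9 and 43. Csf1r, the other defining gene of this list, went the other way and was lowest in library 23. It had 1.81, 0.0564 and 1.21 FPKM in Pdgfra-cre libraries 13, 23 and 25, against 0.969, 0.451 and 1.12 FPKM in floxed libraries 8, 9 and 43. Neutrophil genes, of which 4 of 11 were tested, summed to 21.9, 193 and 12.6 FPKM in Pdgfra-cre libraries 13, 23 and 25, against 4.33, 12.6 and 2.50 FPKM in floxed libraries 8, 9 and 43. Epithelial genes, of which 5 of 12 were tested, summed to 29.7, 52.1 and 12.3 FPKM in Pdgfra-cre libraries 13, 23 and 25, against 6.69, 26.4 and 7.53 FPKM in floxed libraries 8, 9 and 43. Neutrophil, epithelial, myeloid and B cell sums were all highest in library 23, where Cxcl9 and Cxcl10 were highest too. Their part in the chemokine values was not tested. Endothelial genes summed to 33.3 to 44.9 FPKM in Pdgfra-cre and 30.9 to 37.3 FPKM in floxed, mostly Tek, with Cdh5 at 0 in all libraries. B cell genes summed to 1.80 to 10.9 FPKM in Pdgfra-cre and 1.997 to 5.13 FPKM in floxed.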

How the data were processed

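The deposited values were FPKM per gene, made by the authors as 1 table per library. Per the labels' protocols, the RNA became full-length cDNA and then tagmented libraries, without strand information. The submitters' processing notes name TopHat2 2.1.1, Bowtie2 2.2.8, SAMtools 0.1.18, Cuffdiff 2.2.1 and mm10. For the annotation release, options and depth: not given in the sources used here. Read numbers were therefore estimated from the lowest values of genes with 1 transcript of 1500 to 4000 bases (GENCODE M21) and are approximate.

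Genes with at least 1 FPKM in at least 3 libraries (11429 of 24346) were tested on log2(FPKM + 1) with limma 3.58.1 in R 4.3.3, with a variance trend and Benjamini-Hochberg adjustment over all of them at 0.05. The procedure was tested on simulated data, drawn as normal values with a common SD for both groups. It therefore does not show how the test performs where the groups differ in spread, as they did for Cxcl9 and Cxcl10. Single values were compared with exact two-sided permutation tests that list every split of the libraries. SciPy 1.17.1 gave the correlations, the adjustment over ratios and pairs, and the Poisson intervals. The members and gene lists were chosen with earlier results of these data known. Genes that could be named were the members, genes of the CXCR3, interferon gamma and interleukin-10 lists, and the 3 highest and 3 lowest-p genes of other pathway lists. Defining and most abundant cell type markers, the 5 genes most like each tested member, and genomic neighbours could be named too. Not all of these are given, and most cell types are given as sums. Pdpn, Cd34, Dpt, Vim, Rela, Cdh5, the type I ligand genes and the chemokines next to the members in level were named after their values were seen. A result that these rules would name is not reported here. Alternatives were other pseudocounts, filters, scalings, variance models and weights, and leaving out each library.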

Additional observations from a re-analysis of the deposited data

How the results depend on the processing

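The log2 difference of Cxcl9 stayed above 0 and unpassed under 15 of 15 alternatives, from 1.15 to 2.70 when 1 library was left out and from 1.22 (5 added to each value) to 2.48 otherwise, with limma adjusted p from 0.0872 to 0.552. A filter of 5 FPKM removes Cxcl9 and gave no value for it. Cxcl10 did the same under 16 of 16, from 0.72 to 1.90 when 1 library was left out and from 1.06 (array weights) to 1.35 otherwise, with adjusted p from 0.0729 to 0.585. With a robust variance prior the unadjusted limma p was 0.0386 for Cxcl9 and 0.0894 for Cxcl10. Among all genes tested, 0 to 33 were called on leaving out a library (33 if Pdgfra-cre library 25, 3 if Pdgfra-cre library 13, 2 if floxed library 43) and 0 under the other alternatives. The Cxcl9 to Cxcl10 ratio difference was -0.12 with 5 added, which exceeds the Cxcl9 level of 4 libraries, 1.19 with nothing added (chosen after the data were seen), and 0.42 to 0.80 when 1 library was left out. Their correlation was 0.982 to 0.999 when 1 library was left out. The Cxcl11 difference, of 1 read in each group, ran from -0.035 to 0.034 when 1 library was left out, and its sign has no meaning. All Cxcl11 values lay under the floor of 3 reads, so a difference was not detectable at this depth. No paired analysis was possible because the groups share no replicate number.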
